A study of Mus musculus with 64 samples.

Results

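Hippocampal RNA of the inbred mouse strain C57BL/6J was set against that of 7 other inbred strains by bulk RNA sequencing. The 8 C57BL/6J libraries, 4 from females and 4 from males, were chosen by the strain named in the sample titles and make up 8 of the 64 libraries of the study. The other 56 libraries came from 129S1/SvImJ, NOD/ShiLtJ, A/J, CAST/EiJ, PWK/PhJ, NZO/HlLtJ and WSB/EiJ, with 8 libraries of each, 4 per sex. Each of the 7 strains had the same weight in the mean against which C57BL/6J was tested, and both sexes had the same weight within a strain. No genetic change or treatment was named in the labels for any group, and no source used here gave the ages of the mice.

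C57BL/6J is the strain whose genome serves as the mouse reference and is the background of most mouse knockouts. Together these strains founded the Diversity Outbred and Collaborative Cross populations. CAST/EiJ, PWK/PhJ and WSB/EiJ were derived from wild mice, CAST/EiJ and PWK/PhJ from other subspecies of the house mouse, and the rest are classical laboratory strains of mixed origin. The hippocampus holds the pyramidal neurons of the CA fields and the granule neurons of the dentate gyrus, together with glia and blood vessels, and it borders the choroid plexus.

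The C57BL/6J libraries held 18981914 to 27069949 counts, and those of the other strains 16607602 to 27759221. The labels do not say whether the samples of a group came from separate animals, so p-values measure the spread between these samples. Fibcd1, a marker of CA1 pyramidal neurons, was at 176 to 234 CPM (read counts scaled to library size with TMM factors) in the 8 C57BL/6J libraries and 134 to 220 in the others. Prox1, the transcription factor of dentate granule neurons, was at 83.1 to 130 in C57BL/6J and 58.9 to 127 in the others, so both hippocampal markers were present in every library. Choroid plexus markers varied widely: Ttr, the transthyretin of the choroid plexus, was at 5.57 to 3340 CPM in C57BL/6J and 4.78 to 4580 in the other strains. C57BL/6J male 4 had a mean log2 CPM above that of the other 3 males by 1.0 for 16 meningeal fibroblast markers and by 0.324 for interferon-stimulated genes. For 18 choroid plexus markers the mean log2 CPM was highest in male 2 (5.50), then in male 4 (3.60), and 0.575 and 0.479 in males 1 and 3. In bulk tissue, fewer cells of a type and less RNA per cell cannot be told apart. The genome build named for the counts is an assembly of C57BL/6J. The sources used here do not say whether reads of the other strains were aligned to their own sequence, and the part of reference matching in the differences was not tested. The C57BL/6J libraries carry the lowest title numbers of the series, so an order of handling and the strain cannot be told apart.

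A gene was called when the adjusted p from edgeR's quasi-likelihood test (Benjamini-Hochberg) was under 0.05 and the absolute log2 fold change at least 1. Of 17382 genes tested, 670 (3.85%) were called between C57BL/6J and the mean of the 7 strains, with 399 higher (2.3%) and 271 lower (1.56%) in C57BL/6J. The median log2 fold change of all genes was -0.0007. With no minimum fold, 3538 genes (20.4%) were higher and 3061 (17.6%) lower. The calls were unevenly spread over gene classes, since 12.6% of 1895 long non-coding genes were called against 2.76% of 15455 protein-coding genes. They were also concentrated at low levels. Of genes with a mean under 1 CPM 13.6% were called, of those at 1 to 10 CPM 4.95%, and of those over 10 CPM 0.559%.

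Taken strain by strain, C57BL/6J differed most from the wild-derived strains of other subspecies. Calls numbered 2008 genes (11.6%) against CAST/EiJ, with 6.63% of all genes higher in C57BL/6J and 4.92% lower. Against PWK/PhJ there were 1937 (11.1%), with 6.67% higher and 4.47% lower, and against WSB/EiJ 1092 (6.28%), with 3.42% higher and 2.86% lower. The classical strains were closer. NOD/ShiLtJ had 783 calls (4.5%, with 2.01% higher and 2.5% lower) and NZO/HlLtJ 779 (4.48%, with 1.86% higher and 2.62% lower). For 129S1/SvImJ there were 757 (4.36%, with 2.29% higher and 2.07% lower) and for A/J 746 (4.29%, with 2.08% higher and 2.21% lower). All 7 comparisons share the C57BL/6J libraries and are not independent of each other. A call against the mean of the 7 strains seldom held against each of them. The median called gene passed the same rule in the same direction against 4 single strains, in both directions. Of the 399 higher genes, 323 were also higher against CAST/EiJ and 290 against PWK/PhJ, but 181 against NZO/HlLtJ and 182 against A/J. Only 29 genes (0.167%) were higher against all 7 strains and 25 (0.144%) lower against all 7. Of those 29, 16 were protein coding and 13 long non-coding, and of the 25 lower genes 21 were protein coding.

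**Figure D1:**
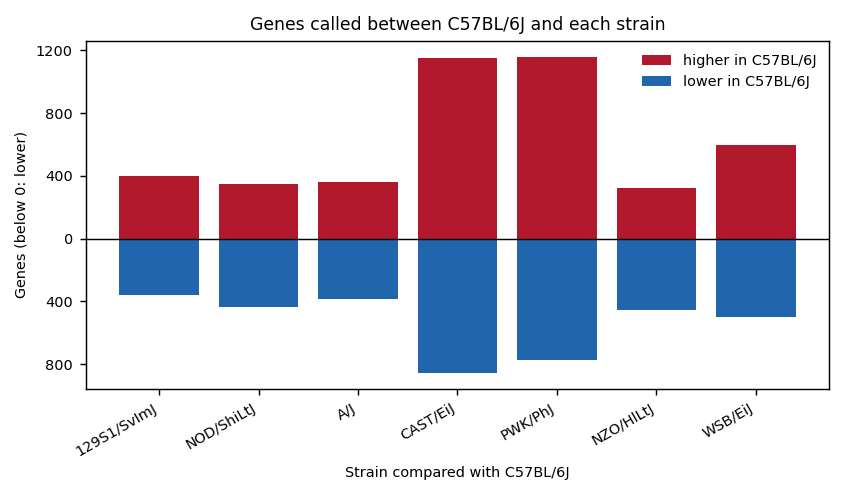
Number of genes called between C57BL/6J and each of the 7 other strains, with genes higher in C57BL/6J drawn above 0 and genes lower in C57BL/6J below 0. The bars for CAST/EiJ (1153 higher, 855 lower) and PWK/PhJ (1160 higher, 777 lower) are the longest, and A/J has 362 higher and 384 lower.

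Among the protein-coding genes with an official symbol, 13 were higher in C57BL/6J than in every other strain (0.167% of all genes passed this rule). The 8 C57BL/6J libraries lay above all 56 others for 10 of them. The rule itself favours such separation, and no share of separated genes over all genes is given. Trim12a, a member of the TRIM5 family of restriction factors, had 2.99, 2.66, 2.72 and 2.66 CPM in C57BL/6J females and 2.11, 2.19, 2.12 and 3.14 in C57BL/6J males, against 0 to 0.253 (median 0.0449) in the other strains. No library of another strain held more than 5 reads of it, whereas each C57BL/6J library held 41 to 64, and the log2 fold change was 5.62 (SE 0.197, adjusted p = 1.23e-31). The TRIM5 family lies in a cluster of close copies, so Trim12a is uncertain. Pttg1, the securin that blocks the separation of sister chromatids until anaphase, was at 20 to 24.9 CPM in C57BL/6J and 0.0449 to 1.74 in the others. Its smallest difference, a log2 fold change of 4.25, was from NZO/HlLtJ (1.17 ± 0.42 CPM, SD, n = 8) and its largest, 6.47, from PWK/PhJ (0.244 ± 0.0672).

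Bub1b, a kinase of the spindle checkpoint, had 1.88, 1.56, 2.0 and 1.78 CPM in C57BL/6J females and 2.06, 1.18, 2.41 and 2.06 in males, against 0.0498 to 1.24 in the other strains. The groups overlapped through PWK/PhJ, where Bub1b averaged 0.953 ± 0.191 CPM (SD, n = 8). Its log2 fold change was 2.07 (SE 0.146, adjusted p = 4.89e-18), and the call held against 6 strains. Of 20 tested genes of mitosis and chromatid separation, 5 were higher and 0 lower at any fold, beside 20.4% and 17.6% of all genes, with a median log2 fold change of -0.0272. The 3 without a fold of 2 were Espl1, the separase that securin inhibits (log2 0.336), Mad2l1 of the spindle checkpoint (0.148) and Smc3 of cohesin (0.132).

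Tnni1, the slow skeletal muscle troponin I, was at 2.47 to 4.71 CPM (median 3.16) in C57BL/6J and 0.0457 to 1.10 (median 0.204) in the other strains, with no overlap and a log2 fold change of 3.75 (SE 0.127, adjusted p = 1.9e-32). Eps8l1, an actin regulator related to Eps8, was at 4.17 to 12.7 CPM in C57BL/6J and 0.163 to 3.42 in the others. Its nearest strain was PWK/PhJ at 2.75 CPM, and its spread within C57BL/6J was wide (8.66 ± 3.30 CPM, SD, n = 8). Strc, the stereocilin of inner ear hair cells, was at 1.68 ± 0.388 CPM in C57BL/6J and 0.368 ± 0.146 in the others. Ppp1r3e, which targets protein phosphatase 1 to glycogen, was at 9.36 ± 1.13 and 3.82 ± 0.861 CPM in C57BL/6J and the others, and Ninj2, an adhesion molecule, at 1.74 ± 0.297 and 0.542 ± 0.309. None of these 5 genes overlapped between C57BL/6J and the other strains.

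Myoc, a secreted glycoprotein also used as a meningeal marker, was called against each strain but by very different margins. It was at 12.4 to 22.6 CPM in C57BL/6J, and averaged 8.52 in NOD/ShiLtJ and 7.13 in NZO/HlLtJ, 1.2 to 1.45 in 129S1/SvImJ and A/J and 0.0952 to 0.162 in the wild-derived strains. Capn11, a calpain protease, had 0.145, 1.70, 0.510 and 0.187 CPM in C57BL/6J females and 1.03, 1.59, 0.111 and 0.596 in males, against 0 to 0.371 in the others. The groups overlapped, as they did for Col6a4, a collagen VI chain at 0.187 to 3.27 CPM in C57BL/6J and 0.136 to 1.15 in the others, and for Nodal, a ligand of the TGF-beta family at 0.459 to 0.888 and 0 to 0.561. Fam177a (41.2 ± 6.08 and 14.9 ± 5.82 CPM in C57BL/6J and the others) and Srp54b, a subunit of the signal recognition particle (25.6 ± 3.23 and 5.05 ± 3.43), lie near copies on chromosome 12 and are uncertain. The related Srp54c was called as well (log2 1.12), but its level was near that of the classical strains and WSB/EiJ (82.1 CPM in C57BL/6J, 66.7 to 71.0 in those strains), and without CAST/EiJ the log2 fold change was 0.597. Entpd4b, another gene with a copy, was called against 129S1/SvImJ alone, where it averaged 0.383 CPM, and without that strain the log2 fold change was 0.666.

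**Figure D2:**
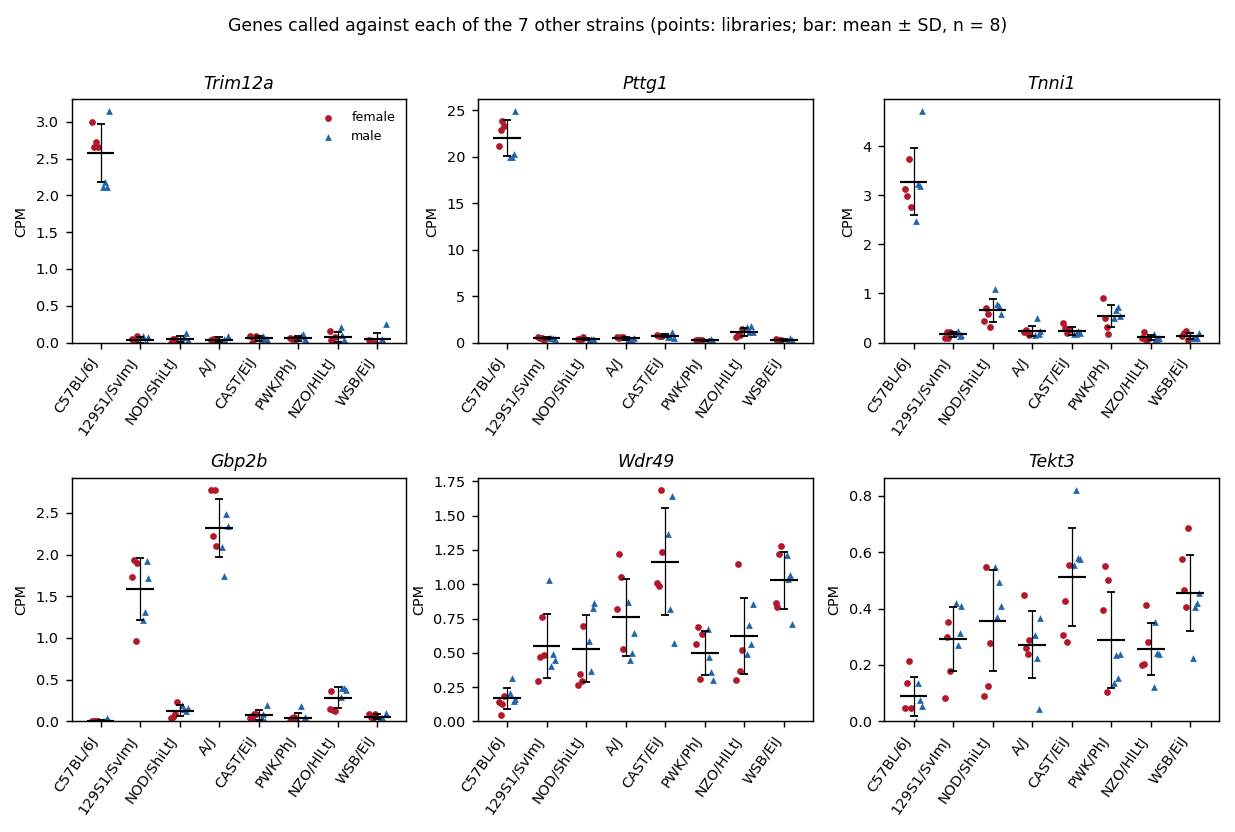
CPM of 6 protein-coding genes in every library, by strain, with C57BL/6J at the left; points are libraries (circles female, triangles male), and bars are the mean ± SD of 8 libraries. Trim12a, Pttg1 and Tnni1 are high in C57BL/6J with no overlap (Pttg1 at 20 to 24.9 CPM), Gbp2b is highest in A/J (2.32 CPM) and 129S1/SvImJ (1.59 CPM), and Wdr49 and Tekt3 in C57BL/6J overlap with other strains.

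Of the 19 protein-coding genes with an official symbol that were lower in C57BL/6J than in every other strain (0.144% of all genes passed this rule), 14 were chosen for description. For 4 of them, Wdfy1, Gabra2, Ccl17 and Pla2g4e, all 8 C57BL/6J libraries lay below all others. Here too the rule favours separation, and no share of separated genes over all genes is given. Wdfy1, an endosomal adaptor of Toll-like receptor 3 signalling, was at 10.2 to 13.4 CPM in C57BL/6J and 39.2 to 56.6 in the other strains. Its 7 strain means fell between 47.8 (A/J) and 54.6 (CAST/EiJ), so the log2 fold changes ran in a narrow range, -1.99 to -2.18. Gabra2 had log2 fold changes of -1.75 (WSB/EiJ) to -2.44 (PWK/PhJ). Ccl17, a chemokine of dendritic cells, had 0.145, 0.459, 0.0425 and 0.280 CPM in C57BL/6J females and 0.412, 0.273, 0.408 and 0.488 in males, against 0.492 to 4.14 in the others (log2 -2.19, SE 0.215, adjusted p = 1.32e-12). The highest C57BL/6J library and the lowest of the others differed by little. Among the other strains Ccl17 was lowest in A/J, with a mean of 0.773 CPM, and highest in PWK/PhJ, with 3.52. Pla2g4e, a cytosolic phospholipase A2, averaged 4.38 ± 0.738 CPM in C57BL/6J, 9.95 in PWK/PhJ and 31.0 in WSB/EiJ.

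A pair of genes lower against all 7 had almost no reads in C57BL/6J. Zfp981, a zinc finger gene of a chromosome 4 cluster, had 0 reads in all 8 C57BL/6J libraries and 0.294 ± 0.207 CPM in the others (SD, n = 56). Set against 3 counts over the 8 libraries it was at least 17.1-fold lower in C57BL/6J than the mean of the 7 strains. The strain means ran from 0.0629 CPM in A/J to 0.602 in CAST/EiJ, so the bound against A/J alone is much smaller. Gbp2b, an interferon-induced GTPase, had a single read in C57BL/6J (male 3) and averaged 2.32 CPM in A/J, 1.59 in 129S1/SvImJ and 0.0411 to 0.282 in the other 5 strains. The ratio of the mean of the 7 strains to C57BL/6J was 112, with a 95% exact Poisson interval for the single read of 20 to 4410, which covers counting error only. Both genes have near-identical neighbours and are uncertain.

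Wdr63, an intermediate chain of inner dynein arms, was at 0.870 ± 0.587 CPM in C57BL/6J and 3.03 ± 1.23 in the others (log2 -1.77, SE 0.263, adjusted p = 2.1e-07). Tekt3, a tektin of axonemal microtubules, was at 0.0888 ± 0.0683 and 0.348 ± 0.165 CPM in C57BL/6J and the others, and Ttll10, a tubulin ligase-like enzyme, at 0.0803 ± 0.0603 and 0.328 ± 0.173. Wdr49 was at 0.168 ± 0.0775 CPM in C57BL/6J and 0.736 ± 0.351 in the others. All 4 overlapped between C57BL/6J and the other strains. Rsph1, a radial spoke protein on the ependymal list, was also lower (4.11 ± 1.14 and 13.4 ± 9.02 CPM, log2 -1.43, SE 0.143, adjusted p = 4e-12), but 129S1/SvImJ averaged 4.12 CPM. Of 12 ependymal markers tested, 2 were higher and 2 lower at any fold (median log2 -0.155), beside 20.4% and 17.6% of all genes, and Foxj1, the master regulator of motile cilia, was at 10.1 ± 3.05 CPM in C57BL/6J and 12.2 in the others (log2 -0.247, adjusted p = 0.181). Sntn, a protein of cilia tips, was called higher (0.745 ± 0.284 and 0.530 ± 0.411 CPM), which rested on NZO/HlLtJ and WSB/EiJ at 0.0225 and 0.0405 CPM, and without NZO/HlLtJ its log2 fold change was 0.736.

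The rest of the 14 were Angptl7, a secreted angiopoietin-like protein (0.176 ± 0.0709 CPM in C57BL/6J and 0.951 ± 0.386 in the others), Allc (allantoicase), Fgfr4, a receptor of fibroblast growth factors, and Myh6, the alpha heavy chain of cardiac myosin. Myh6 was at 0.273 to 0.850 CPM in C57BL/6J and 0.756 to 3.59 in the others, with a log2 fold change of -1.81 (SE 0.191, adjusted p = 1.28e-11). Mhrt, the long non-coding RNA transcribed antisense to Myh6, was lower against all 7 strains too (0.133 ± 0.117 and 0.583 ± 0.248 CPM). Strand was not stated for the counts, so reads of the pair cannot be told apart.

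Interferon-stimulated genes were higher in C57BL/6J than in most strains. The list of 38 held 32 tested genes, of which 26 were higher and 2 lower at any fold, against 20.4% and 17.6% of all genes. The median log2 fold change was 0.578 beside -0.0007 for all genes. Gbp2b, the interferon-induced GTPase that was lower against all 7 strains (log2 -4.52), is not on this list. Beside 2.3% of all genes called higher, 6 of the 32 passed the fold minimum, namely Ifit1, Ifit3, Ifit3b, Oas1a, Oas2 and Iigp1. Interferon induces such genes through a response element in their promoters, searched here as 2 copies of GAAA separated by any 2 bases (NN), on both strands. The motif was found in the promoter windows (250 bases before to 50 after the start, RefSeq, build GRCm38.p6) of 15 of the 19 higher list members with a window and of 2 of the 6 others with one. It was present in the windows of 3.993% of 27025 genes. A match is a description of the letters and not a binding site. The windows of the 5 called interferon-stimulated and MHC class I genes that hold the motif are shown. The windows of H2-Q6 and H2-Q7, the other called class I genes, do not hold these letters, and 4 of the 17 class I list members with a window do. Each reads 5′ to 3′ on the gene's own strand, and capitals mark the motif, which appears as TTTC, 2 bases and TTTC where it lies on the opposite strand. Ifit3 lies at chr19:34583279-34583578, Ifit3b at chr19:34607707-34608006 and Ifit1 at chr19:34640639-34640938, all on the plus strand. Oas1a lies at chr5:120907476-120907775 and H2-T22, an MHC class I gene, at chr17:36042693-36042992, both on the minus strand. All are reference sequence, which is that of C57BL/6J.

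Ifit3: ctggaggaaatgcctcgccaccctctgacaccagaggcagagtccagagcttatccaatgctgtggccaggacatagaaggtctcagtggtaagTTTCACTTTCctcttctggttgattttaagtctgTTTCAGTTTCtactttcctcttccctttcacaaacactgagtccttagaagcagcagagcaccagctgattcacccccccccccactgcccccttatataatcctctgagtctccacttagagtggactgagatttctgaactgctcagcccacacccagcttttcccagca

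Ifit3b: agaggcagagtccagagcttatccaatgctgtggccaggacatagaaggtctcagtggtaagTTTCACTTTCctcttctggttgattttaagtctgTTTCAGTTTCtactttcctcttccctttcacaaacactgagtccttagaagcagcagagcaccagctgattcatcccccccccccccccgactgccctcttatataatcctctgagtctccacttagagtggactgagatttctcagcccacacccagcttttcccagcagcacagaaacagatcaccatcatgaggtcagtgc

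Ifit1: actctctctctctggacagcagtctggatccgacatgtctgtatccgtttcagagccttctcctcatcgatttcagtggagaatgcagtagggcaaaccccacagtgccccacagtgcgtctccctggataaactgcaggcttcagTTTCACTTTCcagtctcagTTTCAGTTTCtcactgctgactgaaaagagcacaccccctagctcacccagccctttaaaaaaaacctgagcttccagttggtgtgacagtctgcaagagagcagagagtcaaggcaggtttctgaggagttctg

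Oas1a: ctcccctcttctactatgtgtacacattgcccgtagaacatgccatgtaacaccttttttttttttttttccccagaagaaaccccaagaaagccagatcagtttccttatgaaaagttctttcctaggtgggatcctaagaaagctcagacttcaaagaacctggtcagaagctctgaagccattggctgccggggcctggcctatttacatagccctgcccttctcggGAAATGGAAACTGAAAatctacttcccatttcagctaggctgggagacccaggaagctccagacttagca

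H2-T22: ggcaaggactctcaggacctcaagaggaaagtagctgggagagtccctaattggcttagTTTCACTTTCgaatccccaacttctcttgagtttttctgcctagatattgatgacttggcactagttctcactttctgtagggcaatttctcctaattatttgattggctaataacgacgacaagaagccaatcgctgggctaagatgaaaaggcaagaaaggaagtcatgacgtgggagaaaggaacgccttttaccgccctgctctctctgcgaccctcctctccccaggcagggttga

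Ifit3, Ifit3b and Ifit1 carried 2 separate matches each, those of Oas1a overlapped in a single stretch, and H2-T22 held 1. The Ifit genes are close copies, so their values are uncertain. Ifit3, an antiviral tetratricopeptide protein, had 13, 11.1, 9.18 and 10.9 CPM in C57BL/6J females and 6.44, 5.38, 5.46 and 11.3 in males, against 0.601 to 9.24 in the other strains. The females and male 4 lay near or above the highest of the others, but males 1 to 3 lay below all 8 WSB/EiJ libraries, which held 6.45 to 9.24 CPM. The other 6 strains averaged 1.05 to 5.10. The log2 fold change was 1.49 (SE 0.114, adjusted p = 2.09e-16). Ifit1 was at 2.43 ± 0.904 CPM in C57BL/6J and 1.22 ± 0.679 in the others. The sensors of double-stranded RNA Oas1a and Oas2 were at 0.637 ± 0.298 and 0.416 ± 0.179 CPM in C57BL/6J, against 0.297 ± 0.218 and 0.159 ± 0.117 in the others, and all 4 genes overlapped. Iigp1, an immunity-related GTPase, was at 2.0 ± 0.596 CPM in C57BL/6J and averaged 0.00534 in CAST/EiJ and 0.643 to 1.78 elsewhere. Its log2 fold change of 1.86 was 0.896 without CAST/EiJ.

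Members of the same list without a fold of 2, named after their values were seen, were also higher. Irgm1, another such GTPase, was at 8.22 to 10.7 CPM in C57BL/6J and 0.789 to 9.31 in the others, where PWK/PhJ was lowest (1.2 ± 0.400) and NZO/HlLtJ highest (7.75 ± 1.07). Irf7, the transcription factor that amplifies the interferon response, was at 2.16 ± 0.584 CPM in C57BL/6J and 1.22 ± 0.431 in the others (log2 0.856, adjusted p = 2.92e-07).

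The size of the difference depended on the strain C57BL/6J was set against. The median log2 fold change of the 32 genes was 0.976 against CAST/EiJ, 0.773 against PWK/PhJ and 0.733 against 129S1/SvImJ, and it was 0.577 against A/J, 0.42 against NOD/ShiLtJ and 0.396 against WSB/EiJ. Against NZO/HlLtJ it was 0.19, with 7 of the 32 genes higher at any fold beside 13.9% of all genes. Against 129S1/SvImJ, 25 were higher beside 12.1%, and against CAST/EiJ 24 were higher beside 27.8% and 4 lower beside 26.7%. Without C57BL/6J male 4 the same number of members, 26, was higher than the mean of the 7 strains and 1 was lower. Shares over all genes without male 4 are not given, here or for the lists below. Changes in list counts therefore cannot be set against the change over all genes. Cxcl10, an interferon-induced chemokine called on the list of reactive astrocyte genes, lost its call without that library (log2 0.901 without it, 1.16 with it).

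**Figure D3:**
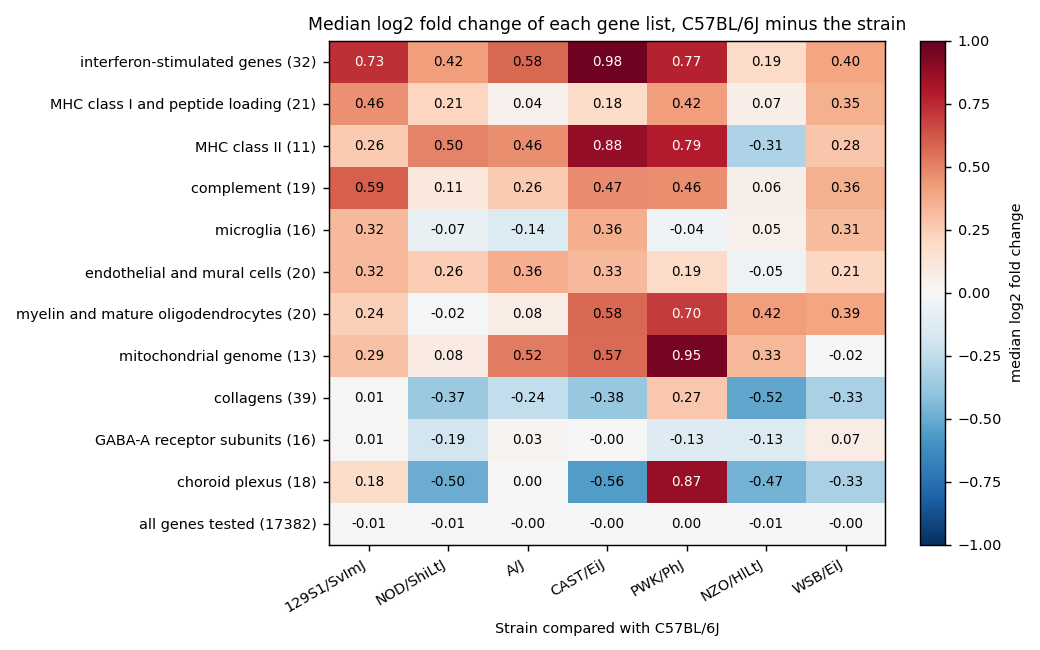
Median log2 fold change, C57BL/6J minus the strain, of 11 gene lists and of all genes tested (number of genes in brackets), by strain; red is higher and blue lower in C57BL/6J. Interferon-stimulated genes are positive in every column (0.19 to 0.98 as drawn), myelin genes are near 0 against NOD/ShiLtJ, collagens are positive against PWK/PhJ (0.27), and all genes lie near 0.

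MHC class I genes, which present peptides to cytotoxic T cells, were also higher than the mean of the 7 strains. Of 21 tested genes of antigen presentation 12 were higher and 0 lower at any fold (median log2 0.286), beside 20.4% and 17.6% of all genes. H2-T22, H2-Q6 and H2-Q7 were called, beside 2.3% of all genes called higher. The list differed by strain, with 14 higher and 0 lower against PWK/PhJ (median 0.421) beside 27.2% and 26.2%, but 6 and 4 against A/J (0.044) beside 13.2% and 14.4%, and 4 and 2 against NZO/HlLtJ (0.067) beside 13.9% and 15.2%. H2-T22, a non-classical class I gene, was at 16 to 18.9 CPM in C57BL/6J and 2.40 to 12.6 in the others, with no overlap, and its strain means ran from 2.73 in PWK/PhJ to 11.4 in NZO/HlLtJ. H2-K1, a classical class I gene, was at 25.4 ± 4.03 CPM in C57BL/6J and 14.3 ± 3.81 in the others (log2 0.862), and its partner B2m at 63.3 ± 9.46 and 45.9 ± 8.93 (log2 0.483). H2 genes are polymorphic and close copies, so their values are uncertain. H2-Q6 and H2-Q7 were not called against the 4 other classical strains alone (log2 0.859 and 0.775). Of 11 tested class II genes 3 were higher and 1 lower at any fold, beside 20.4% and 17.6% of all genes. H2-Eb1 (log2 1.16) and H2-Oa (1.04) were called, beside 2.3% of all genes called higher. Of the 11, 1 had no reads in any C57BL/6J library. Against NZO/HlLtJ 1 was higher and 1 lower (median -0.31), beside 13.9% and 15.2%. H2-Eb1 averaged 2.43 CPM in NZO/HlLtJ and 1.92 in C57BL/6J. H2-Eb1 fell under the fold minimum without C57BL/6J male 4 (log2 0.897), and H2-Oa without male 3 (0.750) or female 1 (0.914).

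Complement genes moved in both directions. Of 19 tested, 12 were higher and 2 lower at any fold, beside 20.4% and 17.6% of all genes. Against NOD/ShiLtJ 4 were higher and 6 lower, beside 15.1% and 15.4%. C57BL/6J male 4 lay 0.387 above the other males in the mean log2 CPM of this list, and without it 10 were higher. The chains of C1q, the starter of the classical pathway made by microglia, were higher: C1qc was at 29.8 to 38.5 CPM in C57BL/6J and 9.20 to 26.9 in the others, with no overlap (log2 0.808, SE 0.0531, adjusted p = 3e-19). The pair that passed the fold minimum was lower, beside 1.56% of all genes called lower. C4a, a copy of complement C4, was at 0.833 ± 0.364 CPM in C57BL/6J, near 0.703 in 129S1/SvImJ and 1.11 in A/J, and averaged 2.11 to 6.10 in the other 5 strains (log2 -1.63, SE 0.154, adjusted p = 3.36e-13). C3, the central component, was at 1.58 ± 0.773 CPM in C57BL/6J and 4.45 ± 3.71 in the others, with means of 11.4 in WSB/EiJ and 8.12 in CAST/EiJ. Without C57BL/6J male 3 the log2 fold change of C3 was -0.939, under the minimum, and it was -0.777 without WSB/EiJ.

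Markers of microglia, the resident macrophages of the brain, differed from strain to strain. Of 16 markers 8 were higher and 1 lower at any fold than the mean of the 7 strains, beside 20.4% and 17.6% of all genes, with a median log2 fold change of 0.0964, and the defining markers Tmem119 and Csf1r had log2 fold changes of -0.015 and 0.005. Against 129S1/SvImJ 14 were higher and 0 lower (median 0.324), against CAST/EiJ 11 and 2 (0.36) and against WSB/EiJ 11 and 0 (0.314), beside 12.1% and 11.6%, 27.8% and 26.7%, and 18.6% and 19.2% of all genes. Against A/J 4 were higher and 6 lower (median -0.136), beside 13.2% and 14.4%. Fcrls, an Fc receptor-like gene of mouse microglia, was at 21.1 to 31.9 CPM in C57BL/6J and 1.57 to 33.3 in the others. It was higher than in 6 strains, whose means were 2.0 to 8.79 CPM, and not than in CAST/EiJ at 29.9 ± 2.97 (SD, n = 8). Ly86, a partner of the receptor Cd180, was at 9.47 ± 0.813 CPM in C57BL/6J and 5.91 ± 2.13 in the others (log2 0.754).

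Myelin genes were higher in C57BL/6J by less than a fold of 2. Of 20 markers of mature oligodendrocytes 18 were higher and 0 lower at any fold, beside 20.4% and 17.6% of all genes, with a median log2 fold change of 0.323, and none passed the fold minimum. Trf, the transferrin that oligodendrocytes secrete, was at 211 to 315 CPM (median 288) in C57BL/6J and 107 to 278 (median 174) in the others. Its log2 fold change was 0.668 (SE 0.0756, adjusted p = 1.89e-10). Mobp, a structural myelin protein, was at 504 to 826 CPM in C57BL/6J and 285 to 871 in the others. The list separated the strains. Against CAST/EiJ and PWK/PhJ 19 of the 20 genes were higher (medians 0.577 and 0.696), beside 27.8% and 27.2% of all genes. Against NZO/HlLtJ there were 17, against WSB/EiJ 16 and against 129S1/SvImJ 11, beside 13.9%, 18.6% and 12.1%. Against A/J there were 6 of 20 beside 13.2%, and against NOD/ShiLtJ 1 was higher and 1 lower, beside 15.1% and 15.4% (median -0.022). Without C57BL/6J male 4, which lay 0.316 above the other males in this list, 16 of the 20 were higher than the mean of the 7 strains.

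Markers of blood vessels, the endothelial and mural cells, were also mostly higher than the mean of the 7 strains. Of 20 tested, 16 were higher and 1 lower at any fold (median log2 0.235), beside 20.4% and 17.6% of all genes, and 12 were higher without C57BL/6J male 4. Against A/J 14 were higher and 2 lower, beside 13.2% and 14.4%. Against NZO/HlLtJ 5 were higher and 3 lower (median -0.05), beside 13.9% and 15.2%, and against WSB/EiJ 7 and 3, beside 18.6% and 19.2%. Cldn5, the tight junction protein of the blood-brain barrier, was at 37.6 ± 4.27 CPM in C57BL/6J and 26.5 ± 5.60 in the others. Slc2a1, the glucose transporter of the barrier, was the lower member (81.3 ± 7.21 and 99.7 ± 16.7 CPM, log2 -0.281). Ly6a (Sca-1) was at 12.3 to 17.8 CPM in C57BL/6J, near WSB/EiJ at 12.4 and 129S1/SvImJ at 11.0 CPM, and averaged 3.56 to 4.39 in the other 5 strains. Ly6c1 was called (log2 1.06), but this rested on WSB/EiJ, where it averaged 0.103 CPM. Without WSB/EiJ its log2 fold change was -0.063, and it was at 22.5 ± 3.48 CPM in C57BL/6J against 17.8 to 29.8 in the other 6 strains. It also fell under the fold minimum without C57BL/6J male 4 (log2 0.988). Ly6 genes are close copies and uncertain.

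**Figure D4:**
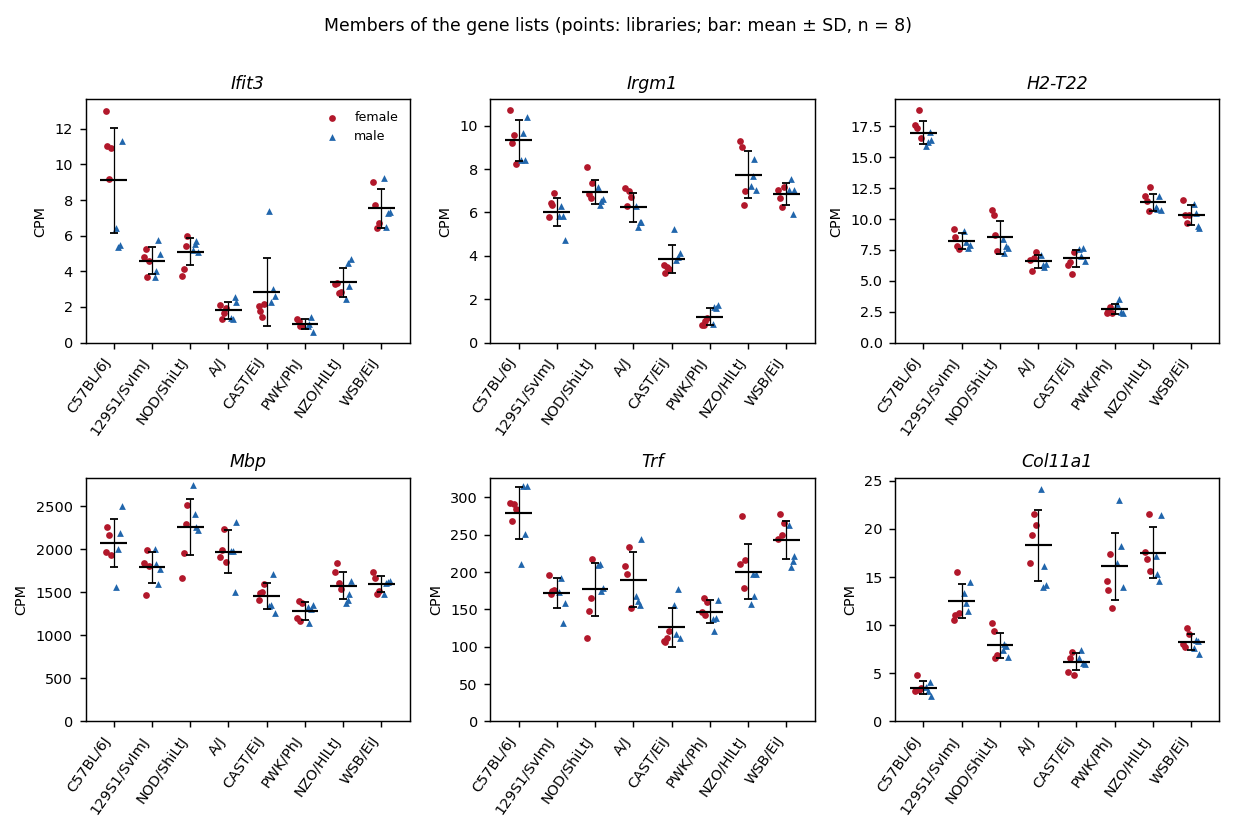
CPM of 6 members of the gene lists in every library, by strain, with C57BL/6J at the left; points are libraries (circles female, triangles male), and bars are the mean ± SD of 8 libraries. Ifit3 and Irgm1 are lowest in PWK/PhJ (1.05 and 1.2 CPM), H2-T22 has no overlap, Mbp has its highest mean in NOD/ShiLtJ, Trf is lowest in CAST/EiJ (126 CPM), and Col11a1 is lowest in C57BL/6J (3.50 CPM).

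C1ql2, a secreted synaptic organiser of dentate mossy fibres, was at 102 to 133 CPM in C57BL/6J and 29.2 to 89.6 in the others, with no overlap and a log2 fold change of 1.42 (SE 0.0671, adjusted p = 7.47e-25). It was called against 6 strains, and against CAST/EiJ (58.4 CPM) the log2 fold change was 0.903. Among 15 dentate granule markers 6 were higher and 1 lower at any fold, beside 20.4% and 17.6% of all genes, with a median log2 fold change of 0.113. Iyd, an iodotyrosine deiodinase listed with the CA2 and CA3 markers, was at 3.19 to 4.33 CPM in C57BL/6J, near 3.20 in NZO/HlLtJ and under 5.09 in NOD/ShiLtJ, and averaged 0.865 to 1.26 in the other 5 strains. Wfs1, a CA1 marker of the endoplasmic reticulum, was at 131 to 162 CPM in C57BL/6J and 87.6 to 622 in the others (log2 -0.805), which did not meet the fold minimum. Kcns1, a silent subunit of potassium channels, was the only gene called among 62 of that list. Beside 3.85% of all genes called, the list held no excess of calls. Kcns1 was at 9.89 to 13.2 CPM in C57BL/6J and 1.67 to 10.2 in the others. Its log2 fold change was 1.10, and 0.923 without CAST/EiJ.

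Among 16 subunits of the GABA-A receptor, only Gabra2 (alpha 2) was called, beside 3.85% of all genes. The C57BL/6J libraries held 77.1 to 93.9 CPM. Of the other 15 subunits, 4 were higher and 1 lower at any fold, beside 20.4% and 17.6% of all genes, so these counts are near the share over all genes or below it. Gabra5, an extrasynaptic alpha subunit of the hippocampus, was at 224 ± 12.4 CPM in C57BL/6J and 198 ± 22 in the others (log2 0.188, adjusted p = 2.74e-06), and Gabrd at 23.1 ± 1.75 and 18.7 ± 4.05 (log2 0.326). Gabra3 (0.141) was also higher, and Gabrg1 (-0.204) was lower. Without C57BL/6J male 4, 3 subunits were higher. In the 16 genes of inhibitory synapses and GABA metabolism 1 was higher and 4 lower at any fold, beside the same shares, and none was called.

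More collagen genes were lower than higher in C57BL/6J. Of 39 collagens 16 were lower and 3 higher at any fold (median log2 -0.211), beside 17.6% and 20.4% of all genes, and 13 were lower without C57BL/6J male 4. Col6a4, which was higher against all 7 strains (log2 1.865), is not on this list. Col11a1 was at 2.60 to 4.77 CPM in C57BL/6J and 4.85 to 24.2 in the others, the lowest of which came from CAST/EiJ. Col9a1, a collagen of cartilage, was at 0.206 ± 0.102 CPM in C57BL/6J and 0.536 ± 0.272 in the others (log2 -1.36). The basement membrane chains Col4a1 and Col4a2 of blood vessels were lower by 0.310 and 0.390 on the log2 scale. Col2a1 was called higher at 1.03 ± 0.228 CPM in C57BL/6J and 0.644 ± 0.531 in the others, but its log2 fold change of 1.04 was 0.983 without C57BL/6J female 3 and 0.941 without male 3. The direction for collagens was not shared by every strain. Against PWK/PhJ 13 were higher and 10 lower at any fold, beside 27.2% and 26.2% of all genes, whereas against NZO/HlLtJ 1 was higher and 21 lower, beside 13.9% and 15.2%. Of 16 meningeal fibroblast markers, 8 were higher and 1 lower against PWK/PhJ (median log2 0.605), and 1 was higher and 4 lower against NZO/HlLtJ (-0.438). The median of 18 choroid plexus markers was 0.869 against PWK/PhJ, where 1 passed the test, and -0.474 against NZO/HlLtJ, where 0 did. The meningeal list itself holds the collagen genes Col1a1, Col1a2 and Col3a1. The part of meninges and choroid plexus in the collagen counts was not tested.

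Energy metabolism held a further contrast. Nnt, the mitochondrial transhydrogenase that makes NADPH, and a textbook example of a gene altered in C57BL/6J, is listed under 2 records, between which reads may be split. Their summed level was 14.9 to 19.5 CPM in C57BL/6J and 20.6 to 36.9 in the others, with no overlap. The means were 16.6 ± 1.67 and 27.6 ± 4.55 CPM (SD, n = 8 and 56), and the main record had a log2 fold change of -0.649 (SE 0.0594, adjusted p = 1.14e-13), short of the fold minimum. The second record, at fewer reads, had -1.19 (adjusted p = 0.0248). All 13 protein genes of the mitochondrial genome were higher at any fold (median log2 0.349), beside 20.4% of all genes, from mt-Atp8 (0.172) to mt-Nd3 (0.997). Their summed level was 56580 to 86560 CPM in C57BL/6J and 35590 to 73360 in the others. The highest C57BL/6J value came from male 4, and without it 12 of the 13 remained higher at any fold. By strain, the median log2 fold change was 0.952 against PWK/PhJ and 0.57 against CAST/EiJ, and 0.081 against NOD/ShiLtJ and -0.019 against WSB/EiJ.

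Lipid genes and stress-responsive genes held a few more calls. Lpl, lipoprotein lipase, was at 49.2 to 56.7 CPM in C57BL/6J and 61.4 to 166 in the others (log2 -1.11, SE 0.0572, adjusted p = 8.06e-24). It was called against 4 single strains. Of 23 tested genes of lipoprotein and lipid transport 5 were higher and 5 lower at any fold, beside 20.4% and 17.6% of all genes. Plin4, a lipid droplet protein induced by glucocorticoids, was at 1.63 to 3.74 CPM in C57BL/6J and 1.65 to 41.7 in the others (log2 -1.46, SE 0.352, adjusted p = 0.000745). Hif3a, another gene on the list of glucocorticoid response, was at 2.35 ± 0.509 CPM in C57BL/6J and 5.15 ± 2.65 in the others (log2 -1.03), and without C57BL/6J male 3 the log2 fold change was -0.966. Of the 17 genes of that list 2 were higher and 5 lower at any fold, beside 20.4% and 17.6% of all genes. Slitrk6, a marker of thalamus, was lower (0.751 ± 0.310 and 1.75 ± 0.935 CPM), while 2 of 16 thalamic and habenular markers were higher and 5 lower at any fold, beside the same shares. Hba-a1, an alpha globin chain, was at 0 to 0.680 CPM in C57BL/6J, and averaged 0.359 to 0.969 in 129S1/SvImJ, A/J and CAST/EiJ and 18.2 to 75.9 in the other 4 strains. It has a near-identical copy, and 8 tested erythroid genes together had 2 higher and 1 lower at any fold, again beside 20.4% and 17.6%, so this is uncertain. Gstp2, a glutathione transferase with a close copy, was lower as well (0.317 ± 0.199 and 1.25 ± 1.31 CPM, log2 -1.65).

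Of the 670 called genes, which are 3.85% of all genes, 151 (22.5%) were next to another called gene in the order of tested genes. The share for called genes spread evenly was not computed. Among the 151 are 4 genes that hold the same counts as another called gene. On chromosome 14, 52 of 669 tested genes were called (7.77%), against 2.43% on X to 5.0% on chromosome 12 for the other autosomes and X. There were 7 runs of 4 or more adjacent called genes. A run on chromosome 19 held Ifit3, Ifit1bl1, Ifit3b, Ifit1bl2 and Ifit1, and a run on chromosome 11 held the interferon-inducible GTPases Tgtp1 and Tgtp2 with Psme2b, 9930111J21Rik1 and 9930111J21Rik2, all of them higher in C57BL/6J. Ifit1bl1, at 3.27 ± 0.258 CPM in C57BL/6J and 2.30 ± 1.55 in the others, was called against 2 single strains. On chromosome 4 a run of 4 zinc finger genes was lower, namely Zfp986, Zfp992, Zfp981 and Zfp993 (log2 -2.42 for Zfp993), while a run of 5 genes around Ccl21b, a chemokine of lymphoid tissue, was called higher. For Fam205a2 of that run the means (2.60 CPM in C57BL/6J and 3.19 in the others) and the fitted log2 fold change (1.07) differ in sign. Ccl21b and Gm10591 held the same counts in all 64 libraries, as did Gm3194 and Gm3383 on chromosome 14, so these pairs are not separate measurements.

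On chromosome 2, a run of 5 genes that includes the zinc finger gene Zfp973 was higher in C57BL/6J. Gm14295, a member of it, was at 24.1 ± 3.02 CPM in C57BL/6J and 10.4 ± 5.69 in the others with no overlap. On chromosome 14, Tmem254a, a transmembrane protein, was at 32.8 to 44.2 CPM in C57BL/6J and at 34.5 to 40.6 in NZO/HlLtJ, and its means in the other 6 strains were 10 to 13.8 CPM. These clusters hold many near-identical copies, and their values are uncertain.

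**Figure D5:**
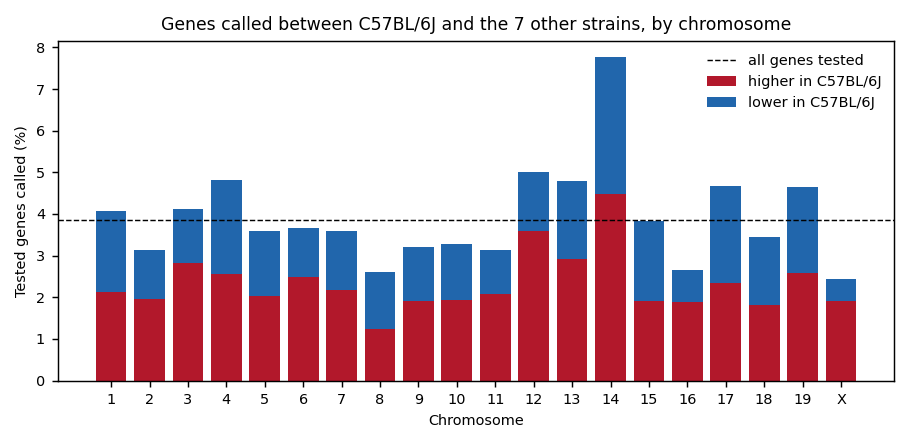
Percent of tested genes called between C57BL/6J and the mean of the 7 other strains, by chromosome (Y, with 10 tested genes, is not drawn); red is the share higher and blue the share lower in C57BL/6J, and the dashed line is the share over all genes (3.85%). Chromosome 14 stands at 7.77% and chromosome X at 2.43%.

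The contrast was also fitted in each sex. The 670 called genes were selected on the mean of both sexes, so agreement between the sexes was largely built in. Of them 669 had the same sign in females and in males, 576 were also called in females alone and 520 in males alone. Among all genes tested, 694 were called in females and 617 in males, and 454 in both sexes with the same sign. No gene (0.0%) passed the test of the interaction between strain and sex at an adjusted p under 0.05 in edgeR or in DESeq2, and 437 genes (2.51%) had an unadjusted p under 0.05 in edgeR and 418 in DESeq2. Within C57BL/6J, 10 genes (0.0575%) differed between females and males at any fold. Ddx3y, Kdm5d, Eif2s3y, Uty, Gm29650 and Uba1y on the Y chromosome were higher in males, and Xist, the RNA that silences an X chromosome, Eif2s3x, 5530601H04Rik and Gm21887 were higher in females. Eif2s3x, a translation initiation factor that escapes X inactivation, was at 192.3 CPM in females and 128.6 in males (log2 0.580, adjusted p = 1.25e-13).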

How the data were processed

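Bulk RNA-seq of hippocampus from 8 strains and both sexes (4 libraries a group) was analysed. Raw read counts per gene were deposited by the authors in 1 table. The genome build is GRCm39, per the submitters' processing notes. Ensembl release 105 is taken from the table's name. The aligner, the counter and the use of strand are not given in the sources used here. Groups came from the labels, and replicate numbers in deposition order only name samples. Symbols, gene types and gene order came from GENCODE M21 (GRCm38), which matched 32146 of 32227 identifiers. Genes kept by filterByExpr (minimum count 10, minimum total 15) numbered 17382. A single model of 16 group means (48 residual degrees of freedom) was fitted to all 64 libraries with edgeR 4.0.16 in R 4.3.3, with TMM scaling and a robust quasi-likelihood fit, and p-values were adjusted by Benjamini-Hochberg over all genes tested. The contrast was tested on simulated data with known changes. Levels are TMM-scaled CPM. List scores are mean log2 CPM (prior count 2).

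The members and the 41 gene lists were chosen with earlier results of these data known. Named genes were protein-coding genes with an official symbol called against all 7 strains, up to 14 a direction by their smallest fold over the 7 comparisons, and up to 4 called members of each list, and Nnt. Further list members were named after their values were seen, and some are not reported here. Promoter windows came from RefSeq (GRCm38.p6), and no window was used for Wdfy1, Oas2 or Iigp1. Alternatives were DESeq2 1.42.0 and its size factors, other count filters and fold minima, an additive model, a choroid plexus covariate, single sexes, and leaving out libraries or strains. Precision is limited by depth for genes under about 1 CPM, where intervals cover counting error only.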

Additional observations from a re-analysis of the deposited data

Results flagged for a closer look

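Each named gene was examined for a library far from the other 3 of its C57BL/6J sex group, with the gap to the nearest library set against the range of the group (Dixon's test). This picked out 9 of 122 groups, and chance alone picks about 1 in 20. In male 4, the library with the highest mitochondrial RNA of its strain, Trim12a was at 3.14 CPM against 2.11 to 2.19 in the other 3 males, Pttg1 at 24.9 against 20 to 20.3 and C1ql2 at 133 against 102 to 106. In female 3, C1ql2 was at 118 CPM while the other 3 females were at 102, and Plin4 at 3.74 against 1.98 to 2.06. Nodal was at 0.888 CPM in female 4 against 0.459 to 0.531 in the other females. Lpl, lipoprotein lipase, was at 56.7 CPM in female 1 against 51.0 to 52.0. Wdr63 was at 2.23 CPM in male 2, which also had the highest choroid plexus score of the 8 libraries (5.50), against 0.566 to 0.596 in the other males. Gbp2b had its only read, 0.0371 CPM, in male 3, with 0 in the other 3 males. A single read among values of 0 is always picked out by this test, so the rate of 1 in 20 does not apply to it. No cause was tested.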

How the results depend on the processing

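Gene counts depended on the thresholds. With no fold minimum 3538 genes were higher and 3061 lower in C57BL/6J, with 213 and 173 against all 7 strains, and with a log2 minimum of 2 there were 101 and 59, with 9 and 4 against all 7. Without a count filter about 9.9e2 genes were higher, with 50 against all 7, and with a mean of at least 50 counts 90 were higher and 74 lower, with 5 and 5 against all 7. Against the 4 other classical strains 264 genes were higher. Leaving out libraries or strains gave 339 to 462 higher and 248 to 318 lower genes, 27 to 31 higher and 19 to 26 lower against all 7, 0 for the interaction with sex and 7 to 11 between the sexes of C57BL/6J. Other settings moved these counts by less than 1.5 times, DESeq2 included (395 higher, 315 lower). Of 61 named genes, 39 kept their call and direction under every alternative in which they were tested, and 74 single values fell under a threshold. Ly6c1 changed sign without WSB/EiJ (-0.063) and against the 4 classical strains (-0.194). Wdr63 had a log2 fold change of -1.70 with the choroid plexus covariate and -2.15 without C57BL/6J male 2. The list counts without male 4 and the counts between the sexes were added after seeing the data. The former have no share over all genes beside them. No paired analysis was possible because the labels give no replicate numbers.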
